A study of Mus musculus with 8 samples.

Results

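The 29 genes described here carry out cholesterol synthesis, sterol sensing, sterol uptake and cholesterol esterification, and were chosen by name from 52636 genes in the files. In pathway order they comprise 4 genes that control the transcription factor SREBP2, 8 genes of the mevalonate and isoprenoid steps, 11 genes of the sterol steps, and 6 genes of uptake, transport and esterification. Each symbol matched 1 gene, and all 29 had enough counts to be tested. The liver transcriptome was measured by RNA sequencing in 8 C57BL/6 libraries at 8 weeks of age. All 8 carried loxP sites in both Ctcf alleles (CTCF fl/fl). Of these, 4 had no Cre recombinase (Albcre-, called WT here) and 4 carried Cre under the albumin promoter (Albcre+, called cKO). Cre under this promoter acts in hepatocytes and leaves Ctcf in liver cells in which albumin was never expressed. CTCF binds DNA and takes part in folding chromatin into loops. No library had Cre without the floxed alleles, so Cre itself and loss of Ctcf cannot be told apart, and whether every library is a mouse of its own is not in the labels, so p-values here measure the spread between these samples.

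Cholesterol is built from acetyl-CoA through mevalonate, isoprenoid diphosphates, squalene and lanosterol. Transcription of most of these enzymes is raised by SREBP2, which is made as a membrane-bound precursor in the endoplasmic reticulum. When sterols are scarce, the escort protein SCAP carries the precursor to the Golgi, where proteases release the active part. When sterols are plentiful, INSIG proteins hold SCAP back. The liver is a main site of cholesterol synthesis and of lipoprotein uptake, and these genes also follow feeding and the time of day.

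Sequences upstream of the genes were examined first, because SREBP proteins are known to bind sterol regulatory elements together with the factor NF-Y, which binds the CCAAT box. RefSeq promoter windows (build GRCm38.p6, from 250 bases before to 50 bases after a start) matched 23 of the 29 genes, and Fdps, Fdft1, Sqle, Stard4, Npc1 and Soat2 had none. The letters CCAAT, read on either strand, occurred in a window of 21 of the 23 genes (91.3%), against 42.5% of 10886 tested genes with a window and 37.4% of all 32851 windows. At least 2 CCAAT boxes in 1 window were found for 13 of the 23 genes (56.5%) and for 16.2% of the tested genes. Both genes without the box were Scap and Acat2. It was present in 12 of the 13 genes that fell in cKO and in 9 of the 10 others. The GC box GGGCGG, which can share end bases with a CCAAT box beside it, was in 21 of the 23 genes (all but Pmvk and Ggps1) and in 65.3% of tested genes. One strict form of the sterol regulatory element, TCACNCCAC, occurred in 1 of the 23, Hmgcs1, and in 1.5% of tested genes. These matches are a description of letters in short windows and do not show binding.

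The bases upstream of the start are shown for the 4 genes with a window that had the lowest log2 changes in cKO and for Hmgcs1, the gene with the strict sterol element. Capitals mark CCAAT, its reverse complement ATTGG, and, in Hmgcs1, the sterol element. On GRCm38.p6 they are chr13:8885356-8885605 (plus strand) for Idi1, chr5:28071162-28071411 (plus strand) for Insig1, chr8:122443423-122443672 (minus strand) for Mvd, chr8:64733579-64733828 (minus strand) for Msmo1 and chr13:119690101-119690350 (plus strand) for Hmgcs1, each read 5′ to 3′ towards the gene.
Idi1: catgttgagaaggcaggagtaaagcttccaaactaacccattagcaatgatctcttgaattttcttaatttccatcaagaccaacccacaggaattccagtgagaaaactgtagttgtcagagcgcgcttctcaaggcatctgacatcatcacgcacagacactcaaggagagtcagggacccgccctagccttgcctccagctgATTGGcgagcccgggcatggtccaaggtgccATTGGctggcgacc
Insig1: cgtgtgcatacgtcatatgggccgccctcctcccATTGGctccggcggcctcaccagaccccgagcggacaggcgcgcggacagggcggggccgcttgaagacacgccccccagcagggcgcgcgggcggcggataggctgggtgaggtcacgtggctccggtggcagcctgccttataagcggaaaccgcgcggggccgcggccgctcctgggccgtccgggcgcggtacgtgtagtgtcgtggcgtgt
Mvd: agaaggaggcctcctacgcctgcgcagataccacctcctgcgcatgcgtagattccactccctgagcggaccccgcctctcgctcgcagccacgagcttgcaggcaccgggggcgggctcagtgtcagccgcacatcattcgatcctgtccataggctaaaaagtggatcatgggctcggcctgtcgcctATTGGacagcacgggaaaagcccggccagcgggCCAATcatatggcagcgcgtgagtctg
Msmo1: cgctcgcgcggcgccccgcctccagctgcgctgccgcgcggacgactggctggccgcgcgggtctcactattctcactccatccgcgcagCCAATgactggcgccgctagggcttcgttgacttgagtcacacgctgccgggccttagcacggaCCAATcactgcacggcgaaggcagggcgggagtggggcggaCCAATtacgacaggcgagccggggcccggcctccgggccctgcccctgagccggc
Hmgcs1: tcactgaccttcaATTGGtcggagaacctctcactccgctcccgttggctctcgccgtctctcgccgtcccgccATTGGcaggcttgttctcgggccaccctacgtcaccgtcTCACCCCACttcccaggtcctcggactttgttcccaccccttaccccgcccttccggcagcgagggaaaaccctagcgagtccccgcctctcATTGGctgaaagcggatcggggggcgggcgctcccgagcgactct
In Idi1 and Mvd a pair of CCAAT boxes lay within 60 bases of the start, at -45 and -14 and at -60 and -27. In Insig1 the box lay farther upstream, first base at -216. In Hmgcs1 the sterol element began at -137, between boxes at -176 and -45, with others at -237 and 11.

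**Figure D1:**
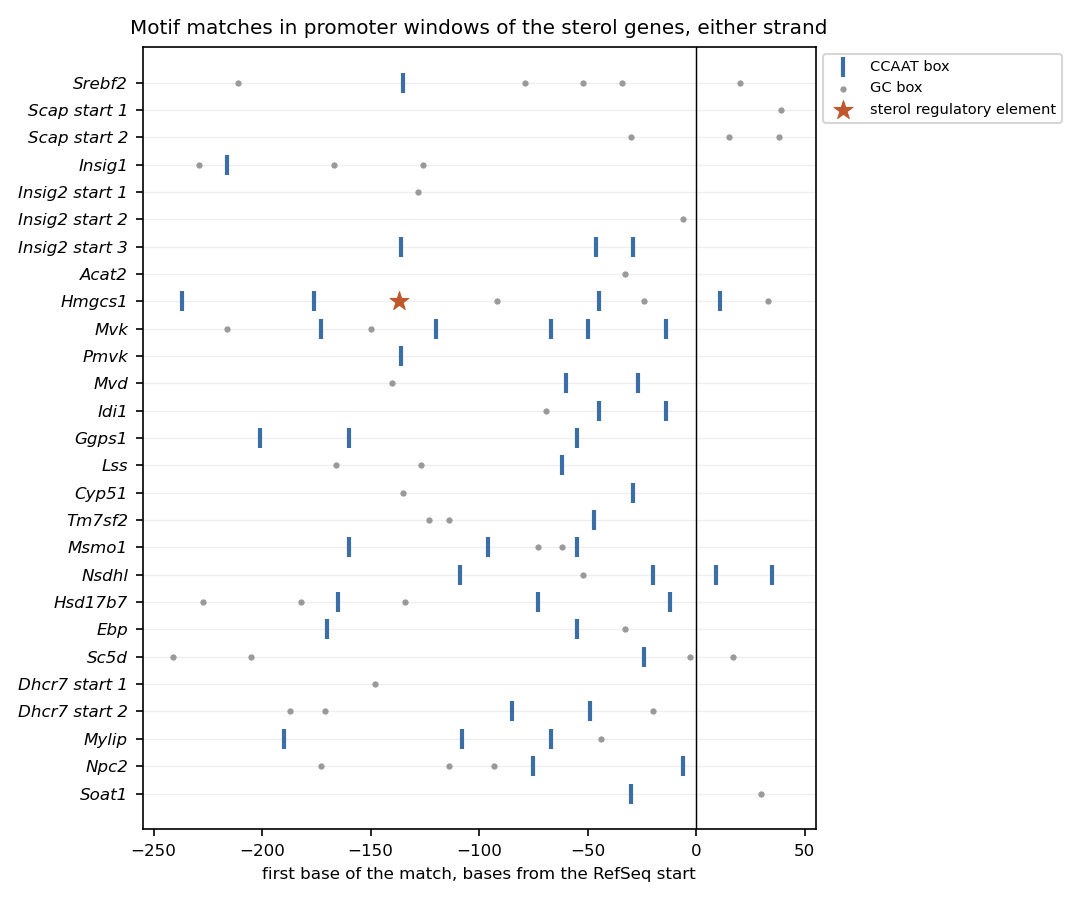
Position of the first base of each motif match (x axis, bases from the RefSeq start, 0 marked by a line) in the promoter windows that held a match, 1 row per window and genes in pathway order. CCAAT boxes (bars) appear for every gene shown except Scap and Acat2, and the strict sterol regulatory element (star) appears for Hmgcs1 alone.

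Library totals ran from 43899481 to 50376750 assigned counts in WT and from 50258178 to 57279620 in cKO. Levels are given as CPM, counts per 1000000 of the library total after TMM scaling. Per 1000000 of the unscaled total, a count of 0 would have allowed 0.0524 to 0.0683, for counting error only, and no gene of the 29 was near that limit. Ctcf itself was at 16.5 ± 0.410 CPM in the WT libraries and 12.2 ± 0.946 CPM in the cKO libraries (mean ± SD of 4), with ranges of 16.02 to 16.9 and 10.9 to 13.1 CPM that did not overlap (log2 change -0.44, SE 0.08, edgeR adjusted p = 0.00177). Over 15562 tested genes, 15.2% were called higher and 14.9% lower in cKO with edgeR's quasi-likelihood test at a Benjamini-Hochberg adjusted p under 0.05. In whole liver, fewer cells of a type and less RNA per cell cannot be told apart. All 10 stellate cell and fibroblast markers were higher in cKO, with a summed level of 134 to 148 CPM in WT and 287 to 386 CPM in cKO. Of 10 hepatocyte markers 6 were lower and 1 higher, with summed levels of 85641 to 114720 and 97857 to 110378 CPM that overlapped; the hepatocyte counts were 4 lower and 1 higher with library size alone. Of 6 cholangiocyte markers 4 were higher and 0 lower (summed 4.44 to 6.01 and 11.3 to 13.4 CPM), of 10 macrophage markers 2 and 0 (233 to 350 and 193 to 318 CPM), of 8 endothelial markers 1 and 0 (94.5 to 182 and 130 to 203 CPM), and of 6 lymphocyte markers 2 and 0 (3.60 to 7.65 and 5.14 to 8.52 CPM). Every marker had enough counts to be tested. The part of cell makeup in the results below was not tested.

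Most enzymes of cholesterol synthesis, together with Srebf2, Scap and Insig1, were lower in cKO, while Dhcr7, which acts at the last reduction, and Npc2, which acts in lysosomal export, were higher. Of the 29 genes 17 were called lower (58.6%) and 2 higher (6.90%), 19 in either direction where the share over all tested genes was 30.1%. The median log2 change of counts was -0.41, against -0.01 over all tested genes. In CPM, every cKO library lay below every WT library for 14 genes (48.3%), which held for 15.6% of all tested genes. For 0 of the 29 did every cKO library lie above, which held for 15% (30.6% of tested genes had no overlap in either direction). Not all of the 14 stayed apart in TPM, as given below. The 17 lower genes were 3 of the 4 control genes, 5 of 8 mevalonate and isoprenoid genes, 7 of 11 sterol step genes and 2 of 6 genes of uptake, transport and esterification. The genes were listed with earlier results of these data known, so that these counts describe the list and do not test it. The count of lower genes was 14 to 17 under the other count fits at the same threshold. It was 6 and 5 with limma on log2(TPM + 1) and log2(TPM + 0.1), which used no scaling between libraries. TPM is the authors' abundance per transcript length. The count was 13 when log2(TPM + 1) was centred on each library's median, a fit that called 1663 of all tested genes higher and 2399 lower.

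**Figure D2:**
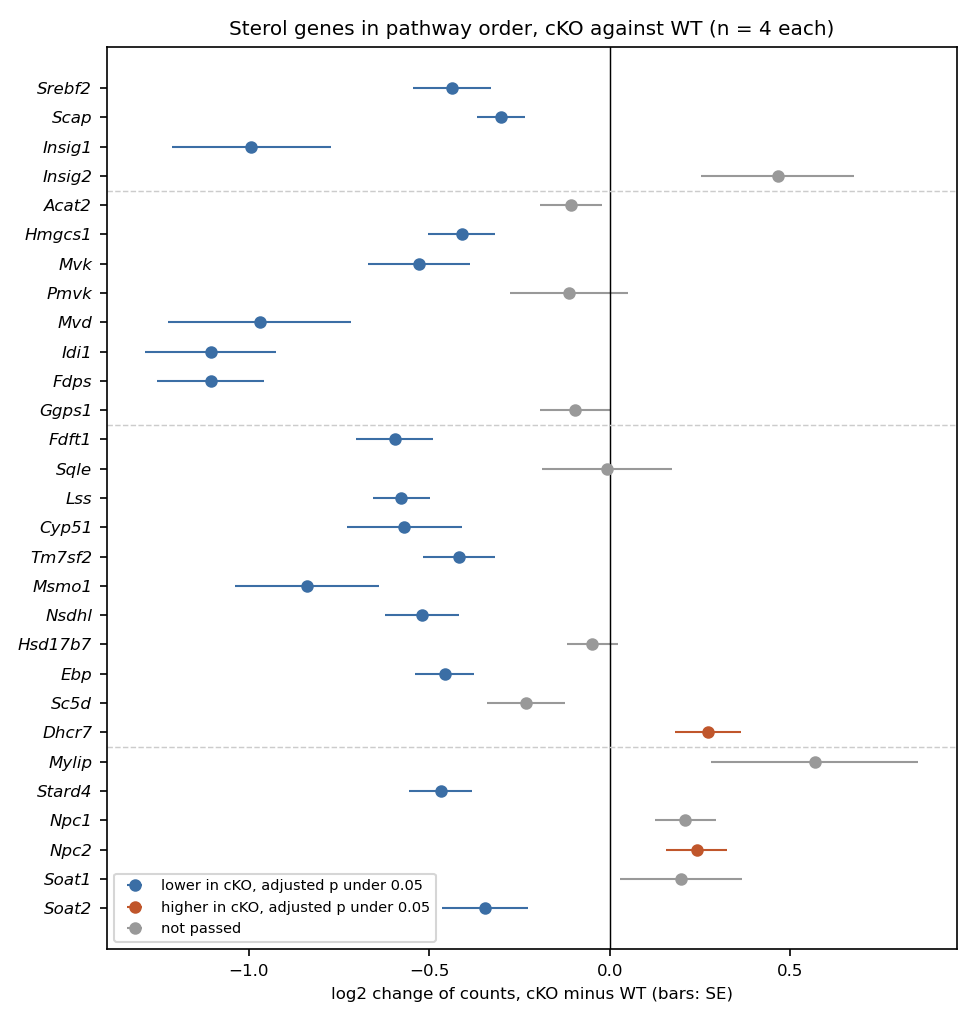
Log2 change of counts (cKO minus WT, x axis) of the 29 genes in pathway order from top to bottom, with SE bars and colours for the edgeR call. The lowest points are Fdps, Idi1, Insig1 and Mvd, and the genes called higher are Dhcr7 and Npc2.

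Among the control genes, Insig1 changed most. Insig1 (ENSMUSG00000045294, GRCm38 chr5:28071412-28078662) encodes an INSIG protein and is itself a known target of SREBP2. Its levels were 67.3, 73.5, 99.8 and 89.7 CPM in WT replicates 1 to 4 and 59.3, 41.8, 32.7 and 32.1 CPM in cKO replicates 1 to 4. The cKO libraries all lay below the WT libraries, with cKO replicate 1 closest to them. The log2 change of Insig1 was -0.99 (SE 0.22, edgeR adjusted p = 0.0123), or 50.2% of its WT level. Insig2 (ENSMUSG00000003721), the other INSIG gene, which is known in mouse liver to rise in fasting and to fall with insulin, stood at 129.8, 196, 143 and 159.6 CPM in WT and 168, 293, 242 and 164 CPM in cKO. The highest level was in cKO replicate 2, and the groups overlapped. Its log2 change of 0.47 (SE 0.21) did not pass with edgeR (adjusted p = 0.134), while DESeq2 gave an adjusted p of 0.0400. On the TPM scale, which allows genes to be compared per length, Insig2 was 3.21, 4.16, 2.41 and 3.19 times Insig1 in WT replicates 1 to 4 and 4.96, 12.4, 13.5 and 8.11 times Insig1 in cKO replicates 1 to 4. All ratios in cKO were above all those in WT, and the smallest in cKO was again replicate 1; this ratio was formed after the values were seen and was not tested. The sum of both INSIG genes was 162 ± 18.8 TPM in WT and 215 ± 55.2 TPM in cKO.

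Srebf2 and Scap were lower by smaller amounts. Srebf2 (ENSMUSG00000022463, GRCm38 chr15:82147269-82205379), the gene of SREBP2, had 27.5, 31.3, 34.7 and 33.3 CPM in WT and 27.97, 19.6, 22.4 and 23.7 CPM in cKO. Only cKO replicate 1 reached into the WT range, above WT replicate 1. The log2 change of Srebf2 was -0.44 (SE 0.11, edgeR adjusted p = 0.0108). Scap (ENSMUSG00000032485), the escort of the SREBP precursors, had 91.1, 89.8, 91.6 and 93.8 CPM in WT and 71.96, 74.98, 69.9 and 80.4 CPM in cKO. Scap varied least of all 29 genes in WT (coefficient of variation 1.82%), and its groups did not overlap (log2 change -0.30, SE 0.07, edgeR adjusted p = 0.00585).

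**Figure D3:**
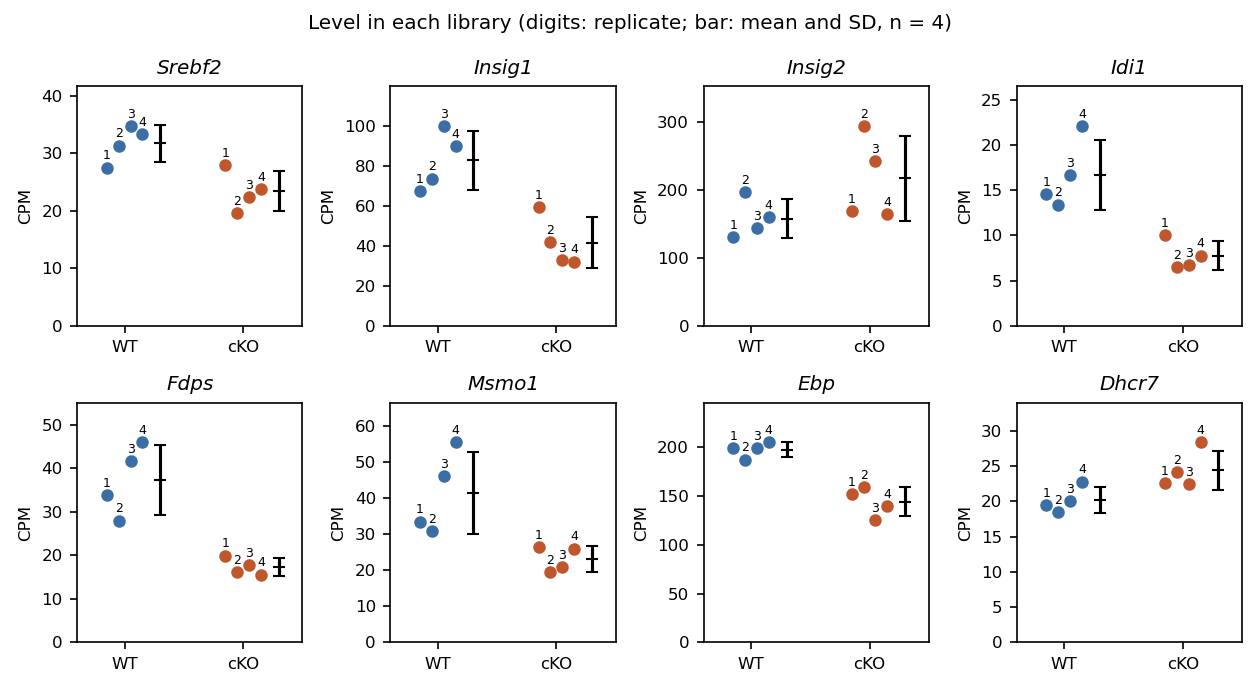
CPM (y axis, from 0) of 8 genes in each WT and cKO library, with the replicate number above each point and the mean and SD of 4 libraries beside them. Insig1, Idi1, Fdps, Msmo1 and Ebp show no overlap between the groups, whereas Srebf2, Insig2 and Dhcr7 do.

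In the mevalonate and isoprenoid steps the falls were largest at the steps from mevalonate diphosphate to farnesyl diphosphate. Fdps (ENSMUSG00000059743, GRCm38 chr3:89093588-89101967), farnesyl diphosphate synthase, had 33.8, 27.9, 41.6 and 45.9 CPM in WT and 19.9, 16.1, 17.8 and 15.5 CPM in cKO. Every WT library was above every cKO library, and WT spread more widely than cKO (coefficients of variation 21.5% and 11.4%). The log2 change of Fdps was -1.10 (SE 0.15, edgeR adjusted p = 0.000812), or 46.5% of its WT level. Idi1 (ENSMUSG00000058258, GRCm38 chr13:8885606-8892396), the isomerase that makes the starting unit of isoprenoid chains, had 14.5, 13.4, 16.7 and 22.1 CPM in WT and 10.1, 6.52, 6.69 and 7.75 CPM in cKO. The groups did not overlap, and the log2 change of Idi1 was -1.10 (SE 0.18, edgeR adjusted p = 0.00223). Mvd (ENSMUSG00000006517), the decarboxylase just before, had 4.43, 3.07, 6.07 and 6.09 CPM in WT and 3.39, 1.67, 2.70 and 2.28 CPM in cKO. WT replicate 2 lay below cKO replicate 1, and the log2 change was -0.97 (SE 0.25, edgeR adjusted p = 0.0166).

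The earlier steps fell less or did not pass. Hmgcs1 (ENSMUSG00000093930), the cytosolic HMG-CoA synthase, had 38.1, 35.5, 46.97 and 36.8 CPM in WT and 32.1, 28.6, 30.8 and 27.04 CPM in cKO, without overlap (log2 change -0.41, edgeR adjusted p = 0.00738). Mvk (ENSMUSG00000041939), mevalonate kinase, had 6.75, 6.68, 8.78 and 8.73 CPM in WT and 5.69, 5.18, 4.31 and 6.29 CPM in cKO, again without overlap (log2 change -0.53, edgeR adjusted p = 0.0158). Acat2 and Pmvk, the thiolase of the first step and phosphomevalonate kinase, did not pass, at 34.8 ± 2.85 and 32.3 ± 3.18 CPM and at 12.3 ± 2.37 and 11.4 ± 2.40 CPM, WT first. Ggps1, which leads away from sterols to geranylgeranyl diphosphate, had 9.09 ± 0.903 and 8.51 ± 0.606 CPM and did not pass either (log2 change -0.10, SE 0.10, edgeR adjusted p = 0.481). Leaving out WT replicate 3 ended the call of Mvk (log2 change -0.46, adjusted p = 0.0516), and leaving out cKO replicate 4 that of Mvd (-0.93, adjusted p = 0.0554). The offset for effective length also ended the call of Mvk (adjusted p = 0.0840).

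Of the 11 genes from squalene to cholesterol, 7 fell, 3 did not pass and 1 rose. Fdft1 (ENSMUSG00000021273), squalene synthase, which commits farnesyl diphosphate to sterols, had 81.2, 69.1, 76.4 and 74.9 CPM in WT and 51.7, 38.8, 51.5 and 57.7 CPM in cKO. Lss (ENSMUSG00000033105), lanosterol synthase, which closes the sterol rings, had 18.5, 19.5, 20.8 and 21.3 CPM in WT and 14.9, 12.7, 13.4 and 12.7 CPM in cKO. Reads of Fdft1 and of the overlapping gene Ctsb could be shared, so its values are less certain. Fdft1 and Lss were lower in every cKO library, with log2 changes of -0.60 (SE 0.11, edgeR adjusted p = 0.00229) and -0.58 (SE 0.08, edgeR adjusted p = 0.000458). Sqle, squalene epoxidase, which acts between them, had 5.92, 5.62, 8.02 and 10.02 CPM in WT and 8.67, 6.29, 7.63 and 6.83 CPM in cKO. The cKO range of Sqle lay inside its WT range, with a log2 change of -0.01 (SE 0.18, edgeR adjusted p = 0.982) whose sign turned under 14 of the 21 alternatives. The call of Lss was lost with the offset for effective length (log2 change -0.40, adjusted p = 0.178). Its mean transcript length varied from 2879 to 5001 bases among cKO libraries and from 3520 to 5022 bases among WT libraries.

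Of the 4 enzymes named here that trim the methyl groups of lanosterol, Cyp51, Msmo1 and Nsdhl were lower and Hsd17b7 did not pass. Cyp51 (ENSMUSG00000001467), the lanosterol demethylase, had 16.98, 17.3, 18.3 and 28.5 CPM in WT and 15.1, 13.3, 12.6 and 13.5 CPM in cKO. WT replicate 4 stood far above the rest. The log2 change was -0.57 with all libraries (edgeR adjusted p = 0.0234) and -0.36 without WT replicate 4 (edgeR adjusted p = 0.00685). Msmo1 (ENSMUSG00000031604), the methylsterol monooxygenase, had 33.6, 30.9, 46.1 and 55.5 CPM in WT and 26.5, 19.4, 20.8 and 26.1 CPM in cKO. It was the sterol step gene with the lowest log2 change, -0.84 (SE 0.20, edgeR adjusted p = 0.0156), and its groups did not overlap. Nsdhl (ENSMUSG00000031349), the dehydrogenase that follows, had 10.2, 11.2, 12.6 and 13.9 CPM in WT and 8.39, 8.69, 8.46 and 7.86 CPM in cKO. Its cKO libraries lay close together, with a coefficient of variation of 4.23% against 13.6% in WT (log2 change -0.52, edgeR adjusted p = 0.00334). Hsd17b7, the keto reductase that completes the removal, had 21.7 ± 0.830 CPM in the WT libraries and 20.97 ± 1.52 CPM in the cKO libraries, which did not pass (log2 change -0.05, SE 0.07, edgeR adjusted p = 0.644). Testing without a filter on low counts ended the calls of Cyp51 (adjusted p = 0.0659) and Msmo1 (0.0539), and leaving out cKO replicate 2, 3 or 4 ended that of Cyp51 (0.0641 to 0.0734).

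The steps that reduce and shift the double bonds of the sterol went in different directions. Tm7sf2 (ENSMUSG00000024799), a sterol reductase, had 75.01, 90.1, 70.6 and 75.8 CPM in WT and 58.6, 66.3, 49.3 and 59.1 CPM in cKO (log2 change -0.42, edgeR adjusted p = 0.00923). Ebp (ENSMUSG00000031168, GRCm38 chrX:8185329-8193512), the sterol isomerase, had 199, 187, 199 and 205 CPM in WT and 152, 159, 125 and 139 CPM in cKO. Tm7sf2 overlaps the gene Vps51 on the chromosome and is less certain. Neither gene's levels overlapped between the groups, and Ebp had a log2 change of -0.46 (SE 0.08, edgeR adjusted p = 0.00216). Sc5d, the desaturase after it, had 104, 117, 109.8 and 117 CPM in WT and 112, 94.8, 74.2 and 101 CPM in cKO, with cKO replicate 1 inside the WT range. Its log2 change of -0.23 missed the threshold (edgeR adjusted p = 0.125) but passed it without cKO replicate 1 (-0.32, adjusted p = 0.0488). Dhcr7 (ENSMUSG00000058454), the reductase that turns 7-dehydrocholesterol into cholesterol, had 19.5, 18.5, 20.1 and 22.8 CPM in WT and 22.6, 24.2, 22.4 and 28.4 CPM in cKO. It was the single gene of synthesis called higher (log2 change 0.27, SE 0.09, edgeR adjusted p = 0.0432), although cKO replicates 1 and 3 lay just under WT replicate 4. That call ended without cKO replicate 2 or 4, or without any 1 of WT replicates 1 to 3 (adjusted p 0.0606 to 0.125).

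Genes of uptake, transport and esterification were divided. Stard4 (ENSMUSG00000024378), a soluble sterol carrier and known SREBP2 target, had 25.02, 25.5, 24.6 and 29.2 CPM in WT and 18.8, 16.2, 20.3 and 20.02 CPM in cKO, without overlap (log2 change -0.47, SE 0.09, edgeR adjusted p = 0.00262). Npc2 (ENSMUSG00000021242), which hands cholesterol on inside the lysosome, had 52.7, 59.5, 53.4 and 58.6 CPM in WT and 67.2, 64.01, 58.2 and 75.5 CPM in cKO, with cKO replicate 3 inside the WT range (log2 change 0.24, edgeR adjusted p = 0.0488). Npc1, the lysosomal membrane protein that receives it, had 116, 120.0, 110.3 and 108 CPM in WT and 125, 114, 145 and 141 CPM in cKO. The log2 change of Npc1, 0.21, missed the threshold (edgeR adjusted p = 0.0808), with cKO replicate 2 inside the WT range, and passed without that library (0.29, adjusted p = 0.0236). Npc1 can share reads with the overlapping gene Rmc1. Soat2 (ENSMUSG00000023045), the cholesterol esterifying enzyme of hepatocytes, had 52.6, 42.7, 47.9 and 35.8 CPM in WT and 38.4, 31.3, 39.3 and 32.1 CPM in cKO, with overlap (log2 change -0.34, edgeR adjusted p = 0.0488). Soat1, the form of macrophages and other cells, stood at 2.78 ± 0.424 CPM in the WT libraries and 3.18 ± 0.590 CPM in the cKO libraries, a difference that did not pass. Mylip, a ubiquitin ligase that marks lipoprotein receptors for degradation, had 9.71, 11.2, 6.53 and 5.10 CPM in WT and 11.03, 10.4, 9.48 and 17.3 CPM in cKO, overlapping widely (not passed, log2 change 0.57, SE 0.29, edgeR adjusted p = 0.176). The call of Soat2 was lost under 18 of the 21 alternatives, among them RLE factors (adjusted p = 0.0523), limma-voom (0.0538) and leaving out any library except WT replicate 4 (0.0532 to 0.132). That of Npc2 was lost under 10, among them limma-voom (0.0522), the effective length offset (0.0506), centred log2(TPM + 1) (0.0525) and leaving out any library except WT replicate 4 and cKO replicate 3 (0.0575 to 0.139).

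Levels per transcript length spanned a wide range within the pathway. In WT the most abundant were Ebp at 167 ± 5.52 TPM, Insig2 at 123 ± 18.4 TPM, Tm7sf2 at 65.1 ± 7.52 TPM and Sc5d at 52.5 ± 4.56 TPM. The least abundant enzymes of synthesis were Sqle at 2.98 ± 0.814 TPM and Mvd at 3.24 ± 0.941 TPM, which did not differ beyond their spread, and Soat1 was lowest of all at 0.530 ± 0.125 TPM. In cKO the order at the top changed, with Insig2 first at 194 ± 57.1 TPM and Ebp next at 133 ± 12.5 TPM, the libraries of both genes overlapping (140.7 to 255 and 119 to 148 TPM). Fdps went from the sixth place to the eleventh (36.9 ± 7.58 TPM in WT, 19.6 ± 2.03 TPM in cKO), and Idi1 from place 20 to place 27 (6.20 ± 1.43 and 3.27 ± 0.675 TPM). TPM carries no scaling between libraries beyond its fixed sum. On it Insig1, Idi1, Fdps, Cyp51, Nsdhl, Ebp and Stard4 stayed lower in every cKO library. Scap overlapped between WT (24.97 to 26.4 TPM) and cKO (21.8 to 25.8 TPM). So did Hmgcs1, Mvk, Fdft1, Lss, Tm7sf2 and Msmo1, which were apart in CPM. Dhcr7 was higher in every cKO library (8.78 to 10.6 and 11.7 to 15.3 TPM). The same held for Npc1 (22.42 to 25.25 and 26.12 to 34.88 TPM) and Npc2 (21.35 to 24.69 and 27.67 to 35.38 TPM).

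**Figure D4:**
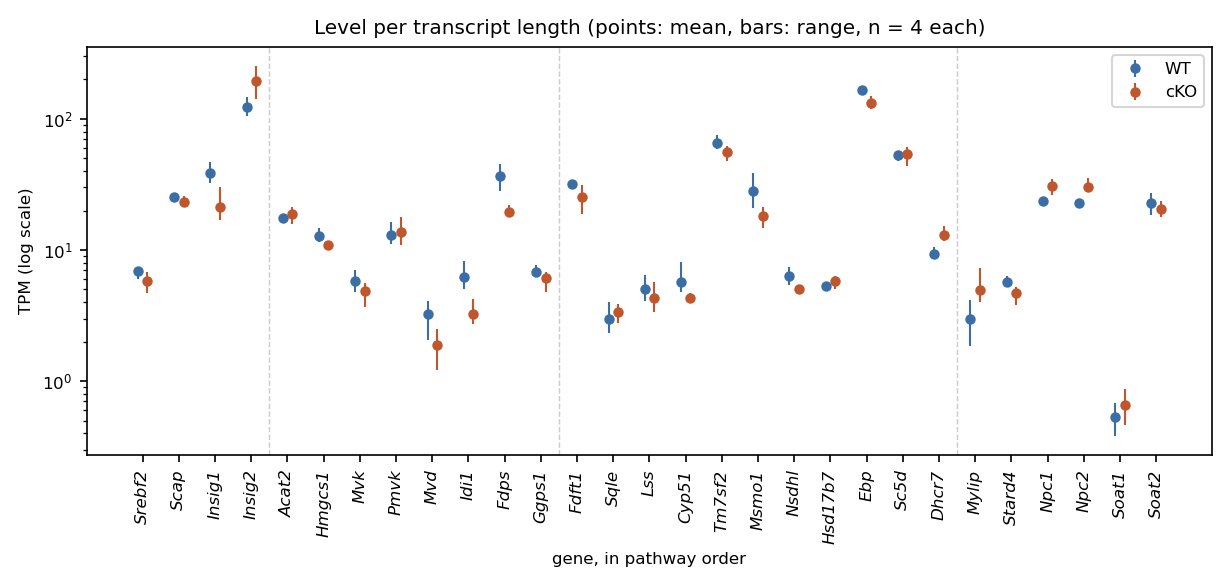
TPM (y axis, log scale) of the 29 genes in pathway order in WT and cKO, as the mean of 4 libraries with bars from the lowest to the highest. Ebp, Insig2, Tm7sf2 and Sc5d lie highest in both groups and Soat1 lowest.

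The genes did not vary alike between libraries of 1 genotype. The coefficient of variation in WT was 34.5% for Mylip, 29.6% for Mvd, 27.8% for Sqle, 27.5% for Msmo1 and 27.2% for Cyp51, but 3.74% for Ebp and 3.83% for Hsd17b7. Of the 17 lower genes, 10 had their highest WT level in replicate 4 and 9 their lowest WT level in replicate 2. As the median log2 CPM of those 17 relative to the WT mean, WT replicates 1 to 4 stood at -0.11, -0.12, 0.08 and 0.14. By the same measure cKO replicates 1 to 4 stood at -0.43, -0.65, -0.65 and -0.53, which the choice of lower genes fixes to lie below WT. Over all 29 genes, cKO replicate 2 held the lowest level of 9 genes, cKO replicate 3 of 8 and cKO replicate 1 of 0.

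**Figure D5:**
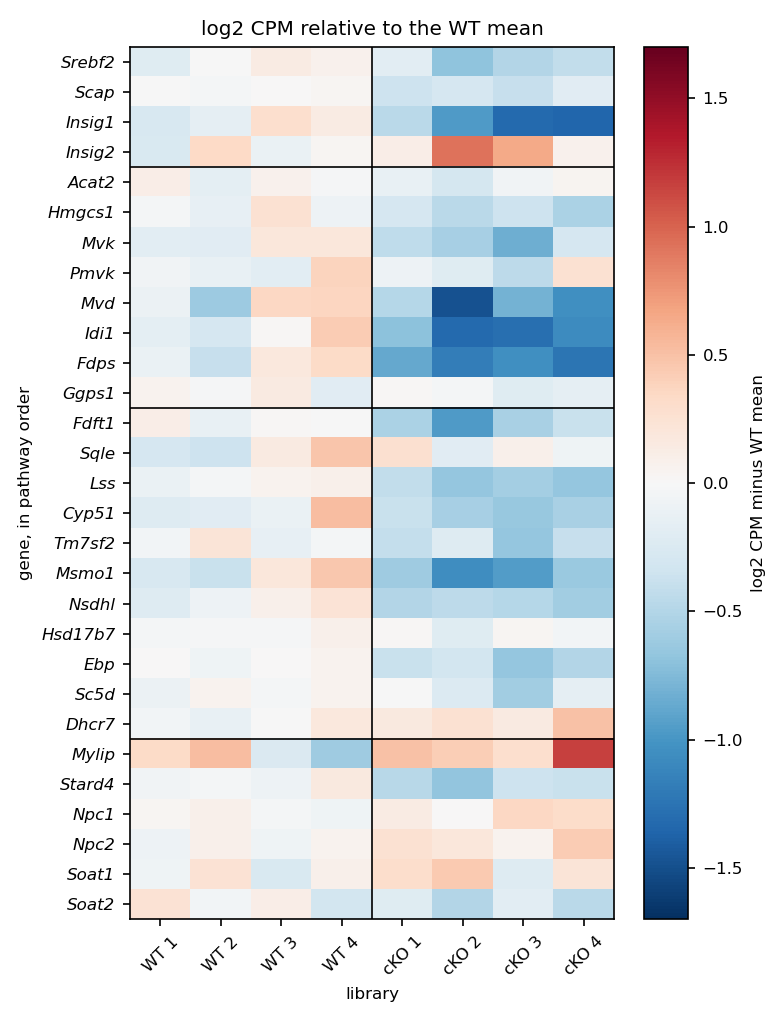
Log2 CPM of each gene (rows, in pathway order) in each library (columns) minus the mean of the 4 WT libraries, from blue (lower) to red (higher). The cKO columns are blue for most genes of synthesis, least so in cKO replicate 1. Mylip is red in the cKO columns and also in WT replicates 1 and 2, and Insig2 is reddest in cKO replicates 2 and 3.

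Mean transcript length per gene, which moves when isoforms are used in other proportions, gave no call. Of 28 genes with at least 2 transcripts 0 were called by limma, as were 0 of all 11564 genes tested (0%). At an unadjusted p under 0.05 (limma) there were 2 of the 28, a smaller share than the 1529 of all 11564 genes. They were Sc5d (2414 ± 89.4 bases in WT, 2275 ± 36.8 bases in cKO) and Fdft1 (2646 ± 35.5 and 2519 ± 79.2 bases). Srebf2 had 1 transcript and could not be tested.

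Lists of neighbouring genes of sterol metabolism held few calls. Of 15 genes that process SREBP or degrade sterol-regulated proteins 4 were higher and 0 lower (median log2 change 0.12; 2 and 1 on log2(TPM + 1) centred by library), among them Erlin1 (21.5 ± 1.47 to 27.8 ± 2.47 CPM), which acts in sterol-regulated degradation at the endoplasmic reticulum, the ubiquitin ligase gene Rnf145 (13.6 ± 2.01 to 18.2 ± 0.954 CPM) and Mbtps2, a protease that releases SREBP (3.48 ± 0.211 to 4.72 ± 0.545 CPM). Of 3 genes of acetyl-CoA supply 1 was lower, Slc25a1, the mitochondrial citrate carrier (172 ± 9.01 to 139.7 ± 9.57 CPM), a call absent with library size alone. Of 7 genes of electron supply and partners of the sterol steps 1 was lower, Cyb5r3, the cytochrome b5 reductase (291 ± 10.5 to 233 ± 14.4 CPM). Isoprenoid branches held 2 higher and 1 lower of 15, Chm, Zmpste24 and, as the lower, Rabggta, a subunit of the enzyme that attaches geranylgeranyl to Rab proteins (42.4 ± 1.65 to 31.7 ± 0.801 CPM). Of 7 lipoprotein uptake genes 1 was lower, Sort1 (10.5 ± 0.746 to 7.74 ± 0.482 CPM).

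Intracellular sterol transport held 1 higher and 1 lower of 13 tested genes. They were Lipa, the lysosomal hydrolase of cholesterol esters (111 ± 2.26 to 154 ± 19.3 CPM, log2 change 0.47, edgeR adjusted p = 0.00284), and Gramd1c (28.95 ± 4.97 to 19.02 ± 2.10 CPM, log2 change -0.61). Of 7 genes of LXR, the oxysterol receptor, and of sterol efflux 0 were higher and 1 lower, Nr1h2, which encodes a form of LXR (log2 change -0.23, edgeR adjusted p = 0.0389); with library size alone 2 were higher and 0 lower. Each of these shares lay near or under the share of all tested genes, 15.2% higher and 14.9% lower, apart from the SREBP processing list's 26.7% higher and the 33.3% that 1 of 3 gives.

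Fatty acid synthesis genes, which answer mainly to SREBP1, were called in both directions. Of 13 such genes 6 were higher (46.2%) and 3 lower (23.1%), with a median log2 change of 0.42. Over all tested genes 15.2% were higher and 14.9% lower. Srebf1, the gene of SREBP1, had 29.1, 35.9, 50.7 and 27.3 CPM in WT and 23.3, 19.6, 18.1 and 15.9 CPM in cKO, without overlap (log2 change -0.89, SE 0.21, edgeR adjusted p = 0.0142). The elongase genes Elovl5 and Elovl6 and the desaturase gene Scd2 had log2 changes of 0.81, 0.98 and 0.76. The difference between this list and the sterol genes was not tested.

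Genes that follow feeding or the clock are given because the labels give neither the feeding state nor the time of collection. Of 8 fasting and feeding genes 4 were higher (50%) and 1 was lower (12.5%, and 0 lower with library size alone). Igfbp1, Cpt1a and Pdk4, which rise in fasting, had 30.8 ± 6.09 and 102 ± 36.1 CPM, 401 ± 60.9 and 543 ± 41.98 CPM, and 3.51 ± 2.03 and 11.3 ± 2.26 CPM in WT and cKO. Of 12 clock genes 1 was higher (8.33%) and 3 lower (25%), where 15.2% of all tested genes were higher and 14.9% lower. The summed level of the clock genes was 666 to 779 CPM in WT and 543 to 586 CPM in cKO, without overlap. Among them were Dbp at 129 ± 9.66 and 97.05 ± 10.6 CPM, Tef at 239 ± 20.8 and 191 ± 7.18 CPM and Nr1d1 at 147, 104, 133 and 80.5 CPM in WT and 91.8, 50.6, 46.4 and 39.1 CPM in cKO. Nr1d1 was named after its values were seen. With library size alone 2 clock genes were higher and 2 lower, and the higher gene under TMM scaling was Nr1d2. The part of feeding or time of day in the sterol gene results was not tested.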

How the data were processed

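Per the labels' protocols, flash-frozen liver gave Trizol RNA, prepared for sequencing with a TruSeq RNA kit. STAR 2.5.1 (alignment) and RSEM (quantification) were used on mm10, per the submitters' processing notes. Neither annotation nor strandedness is given in the sources used here. The authors deposited RSEM expected counts (estimated counts, with shared reads divided between genes), transcript lengths (other values, in bases), TPM, and FPKM, which was not used. Overlapping genes (Fdft1 with Ctsb, Tm7sf2 with Vps51, Npc1 with Rmc1, Acat2 with a pseudogene) and antisense genes can share reads, so their values are less certain. Insig1, Mvd and Lss each overlap a long noncoding RNA gene, and Fdps and Srebf2 each overlap a gene of a small RNA, so the same limit applies to them.

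Counts were rounded, filtered (filterByExpr, minimum count 10, minimum total 15; 15562 of 26668 genes with a count), scaled with TMM factors (0.964 ± 0.007 in WT, 1.04 ± 0.018 in cKO) and tested with edgeR 4.0.16 in R 4.3.3 (robust glmQLFit, glmQLFTest, Benjamini-Hochberg). Standard errors were derived from the F statistic. CPM used the same factors. Lengths were tested with limma 3.58.1 on the log2 scale. On simulated counts, with changed genes drawn from those over 1 CPM, edgeR recovered 74% of 100 genes changed 1.5-fold among 15353 genes. It recovered 96% of 100 changed 2-fold, and 5.56% of calls were unchanged genes. Each simulated gene had the spread between libraries typical of its level, not its own. Far fewer genes were changed than the 30.1% called in the real data, so these rates need not hold for the 29 genes. The length test recovered 94.5% of 200 genes among 11564. Those 200 were shifted by 0.3 log2 and drawn from genes with little spread in length within a group. The largest length difference among the 29 genes was 0.22 log2 (Ggps1), so recovery of differences of their size was not simulated. Libraries of 1 genotype all differed by more than sampling noise (chi-square divided by its degrees of freedom at least 28.4). The labels name no batch. The genes, lists and tests were chosen with earlier results of these data known. All 29 genes are named, with values per library where a gene passed or where leaving out a library changed its call, and for a few more chosen after their values were seen; other lists are given by counts and at most the 3 smallest p among genes that passed, plus Srebf1 and Nr1d1. The values of the lower gene of the fasting and feeding list are not reported here. Alternatives were RLE or upper quartile factors, no factors (library size alone), no filter, at least 1 CPM in 4 libraries, DESeq2 1.42.0, limma on log2(TPM + 1) or log2(TPM + 0.1), limma-voom, an offset for effective length, a replicate block, a threshold of 0.01, leaving out each library, and, added after seeing the data, log2(TPM + 1) centred by library median.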

Additional observations from a re-analysis of the deposited data

Results flagged for a closer look

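Among 58 groups of 4 libraries (29 genes in each genotype), 2 held a library whose gap to its nearest neighbour was too large a share of the group's range by Dixon's critical value, where chance gives about 1 in 20 groups. Cyp51 stood at 28.5 CPM in WT replicate 4 and at 17.0 to 18.3 CPM in the other WT libraries. Hsd17b7 stood at 22.9 CPM in WT replicate 4 and at 21.2 to 21.3 CPM in the others.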

How the results depend on the processing

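Of the 17 lower calls, 4 (Idi1, Fdps, Nsdhl and Ebp) were kept under all 21 alternatives, 10 under every alternative on counts at the 0.05 threshold, and 13 when each library was left out in turn; neither higher call, Dhcr7 or Npc2, was kept throughout. The members called lower numbered 10 at an adjusted p under 0.01, 6 with limma on log2(TPM + 1) and 5 with limma on log2(TPM + 0.1). Those called higher numbered 0 at 0.01, 1 each with the effective length offset, limma-voom and centred log2(TPM + 1), and 4 with log2(TPM + 1). All genes called higher and lower numbered 1165 and 1050 at 0.01, 3604 and 1318 with library size alone, 3606 and 755 with log2(TPM + 0.1), and 3850 and 864 with log2(TPM + 1). With centred log2(TPM + 1) these counts were 1663 and 2399. Library size alone moved the median log2 change of all genes to 0.10, log2(TPM + 0.1) moved it to 0.15, and centred log2(TPM + 1) moved it to -0.043. Leaving out 1 library at a time gave 0 to 2 members higher and 14 to 17 lower, 1739 to 2540 genes higher and 1624 to 2486 lower, and 0 members with a changed transcript length.

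Signs turned for genes that did not pass. With log2(TPM + 1) and log2(TPM + 0.1), Acat2 had log2 changes of 0.072 and 0.076, Pmvk 0.052 and 0.055, Sqle 0.15 and 0.20, Hsd17b7 0.11 and 0.13 and Sc5d 0.0285 and 0.0288. With library size alone Ggps1 had 0.0084, Sqle 0.10 and Hsd17b7 0.059. Sqle also had 0.015 with the effective length offset, 0.012 with no filter, 0.014 with centred log2(TPM + 1), 0.00076 with the filter of 1 CPM, 0.026 with limma-voom and 0.0062 with upper quartile factors. Leaving out 1 library gave -0.12 to 0.17 for Sqle, -0.26 to 0.030 for Pmvk and -0.068 to 0.015 for Hsd17b7. Soat1 had -0.027 with centred log2(TPM + 1). The cause was not tested.

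With the replicate block 16 members were lower and 3 higher, 2525 genes were higher and 2419 lower, 0 lengths changed, Sqle had 0.018, and Insig1 (adjusted p = 0.0707) no longer passed while Insig2 (adjusted p = 0.0216) did. The labels do not pair equal numbers. Deviations of WT and cKO libraries with the same number correlated at 0.05 to 0.13 across genes. WT replicates 1, 2 and 3 each correlated best with the cKO library of the same number (0.13, 0.05 and 0.10). WT replicate 4 correlated best with cKO replicate 2 (0.13, against 0.09 with cKO replicate 4). Depth limited none of the 29 genes to a few counts.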
